A study of Drosophila melanogaster with 3 samples.

Results

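The long non-coding RNA genes lncRNA:Vinr and lncRNA:CR44619 and the protein-coding gene CG4004 lie next to each other on the X chromosome of Drosophila melanogaster. These 3 genes, of 18277 annotated ones, were picked because 2 strong peaks of the heterochromatin protein Su(var)3-7 sit about 1 kb apart among them. The signal of those peaks therefore chose the genes (they were chosen by signal and spacing), and it is given here as a description with no test. Every peak summit inside the 3 genes or within 10 kb of them was taken, a stretch of 30360 bp (dm6, chrX:12734212-12764571). It held 6 of the 4055 peaks that passed the authors' reproducibility threshold, and 18 of the 30000 relaxed regions the authors called on the pooled replicates. The relaxed lists of replicates 1, 2 and 3, also of 30000 regions each, had 16, 19 and 18 regions in the stretch.

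The data are chromatin immunoprecipitation followed by sequencing (ChIP-seq) of whole embryos collected at 0 to 24 h, males and females together. The flies were 1 transgenic line that stably expresses Su(var)3-7 with green fluorescent protein (GFP) at its C terminus. Chromatin was sonicated to fragments of 200 to 800 bp and precipitated with an anti-GFP antibody, according to the sample descriptions, although the labels' antibody field names Su(var)3-7. There was 1 group of 3 biological replicates, so no treatment, genotype or stage can be compared, and a whole embryo mixes all its cell types. Untagged embryos and a mock precipitation were not analysed here. Read numbers are not part of the lists, and sequencing depth is therefore unknown for every replicate.

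Su(var)3-7 is a zinc-finger protein that associates with HP1 and with the histone methyltransferase Su(var)3-9 in pericentric heterochromatin, and its dose modifies the silencing of genes placed next to heterochromatin. lncRNA:Vinr, whose RefSeq name is VSR interacting RNA, is known in flies for a role in antiviral defence: the RNA acts when a viral protein suppresses RNA interference, protects the Cactin protein from degradation and favours the expression of antimicrobial peptide genes. No role is given here for lncRNA:CR44619 or for CG4004.

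The sequence under the 3 peaks of the non-coding genes is shown because the peak heights, the spacing and the base composition described afterwards all refer to it. It was read from the RefSeq genome (Release 6, dm6) on the plus strand, which is also the strand of the 3 genes. Capitals mark matches to searched motifs within 100 bp of the summit, and all other bases are in lower case, whatever the masking of the genome file. The first is the peak in the exon of lncRNA:Vinr (chrX:12751252-12751551), with TATAAA, the STAT pattern TTCNNNGAA and, as ATGGC, the Pho core GCCAT.
Vinr exon peak: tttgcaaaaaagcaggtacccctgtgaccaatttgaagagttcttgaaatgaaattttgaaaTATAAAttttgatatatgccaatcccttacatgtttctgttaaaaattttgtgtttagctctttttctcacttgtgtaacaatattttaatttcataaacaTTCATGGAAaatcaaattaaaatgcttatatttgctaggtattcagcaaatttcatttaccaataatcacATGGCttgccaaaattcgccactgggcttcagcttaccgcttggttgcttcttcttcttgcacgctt
The second is the peak in the first exon of lncRNA:CR44619 (chrX:12752212-12752511), with the BEAF-32 core CGATA found as TATCG at 2 places and the E-box CAGCTG.
CR44619 first exon peak: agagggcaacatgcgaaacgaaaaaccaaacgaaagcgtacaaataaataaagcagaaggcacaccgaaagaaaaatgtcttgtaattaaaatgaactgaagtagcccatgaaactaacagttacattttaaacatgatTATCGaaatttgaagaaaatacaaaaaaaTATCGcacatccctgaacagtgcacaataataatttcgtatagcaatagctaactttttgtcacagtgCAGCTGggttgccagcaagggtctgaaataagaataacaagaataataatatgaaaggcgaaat
The third is the weaker peak in the last exon of lncRNA:CR44619 (chrX:12754424-12754623), with the E-box CACGTG.
CR44619 last exon peak: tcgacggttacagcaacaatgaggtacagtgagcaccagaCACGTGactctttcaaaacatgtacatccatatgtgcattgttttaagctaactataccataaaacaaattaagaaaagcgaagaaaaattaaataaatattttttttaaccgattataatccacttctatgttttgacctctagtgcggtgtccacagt

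The genes run in the same direction and are tightly packed. CG4004 occupies chrX:12744212-12749785 with 4 annotated start sites, and lncRNA:Vinr begins after a gap of 108 bp. lncRNA:Vinr is a single exon of 2457 bp (chrX:12749894-12752350). lncRNA:CR44619 (chrX:12751867-12754571, 2705 bp) starts inside it, so the 2 non-coding genes overlap by 484 bp on the same strand. The first exon of lncRNA:CR44619 ends at 12752416, and its last exon starts at 12753825 or at 12754147, depending on the transcript.

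The 2 strong peaks stood on either side of the start site of lncRNA:CR44619. The stronger had a signal of 2106, the rank of 9 among 4055 thresholded peaks, and covered chrX:12751119-12751639. Its summit at 12751402 lay in the exon of lncRNA:Vinr, 1508 bp after the start of that gene and 465 bp before the start of lncRNA:CR44619. The whole peak ended 228 bp before that start site. The second had a signal of 1556 and the rank of 24, and covered chrX:12752158-12752551. Its summit at 12752362 lay in the first exon of lncRNA:CR44619, 495 bp after the start and 12 bp past the annotated end of lncRNA:Vinr. Signal is the authors' own value for a region and its scale is unstated, so values are compared within a list by rank or as a multiple of the list's median.

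**Figure D1:**
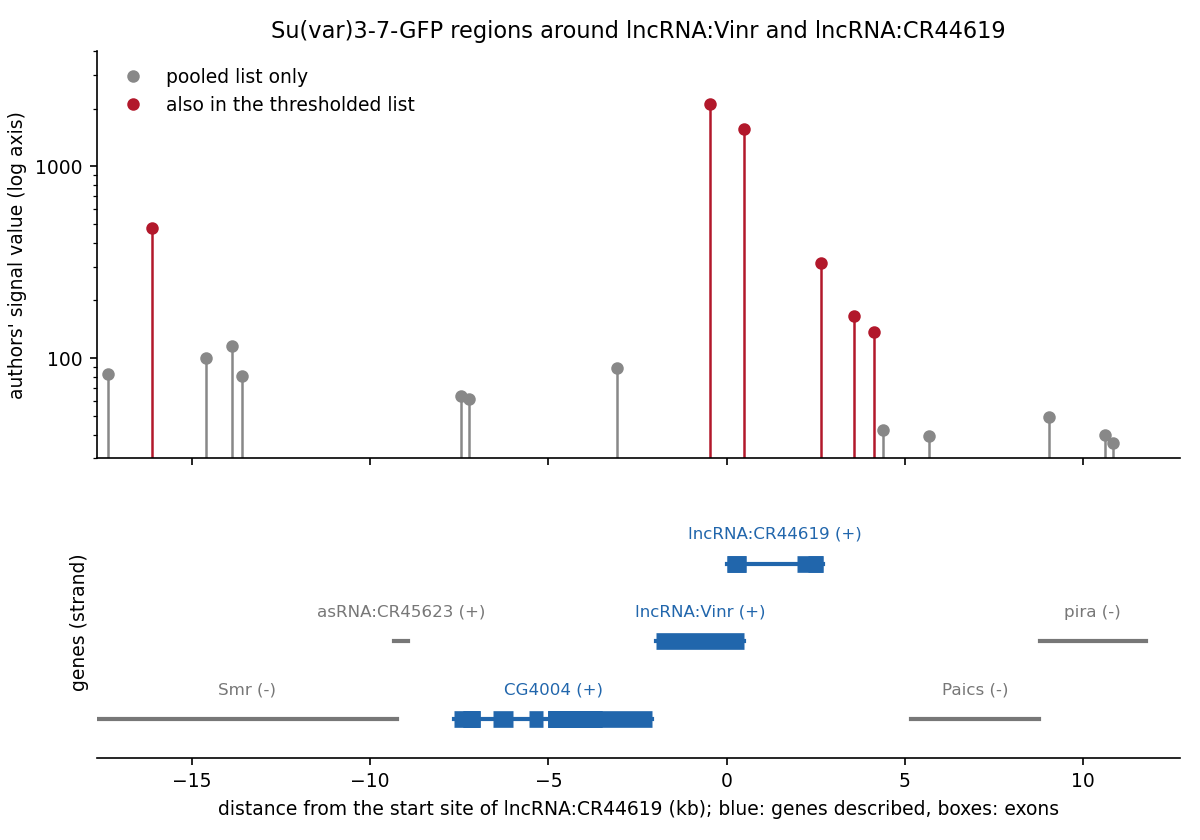
Upper panel, the authors' signal value (log axis) of the 18 pooled regions against the distance of their summits from the start site of lncRNA:CR44619 (kb), with the 6 thresholded peaks in red; lower panel, gene spans, with exon boxes for the 3 genes described. The highest signals, 2106 and 1556, stand on either side of the start site at 0, and CG4004 carries only regions of the pooled list.

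Each replicate showed both peaks. The lncRNA:Vinr peak had a signal of 682 in replicate 1, 930 in replicate 2 and 523 in replicate 3, which were 35.5, 36.5 and 28.7 times the median of the respective list. The 3 values were of similar size, lowest in replicate 3, with a mean of 33.6 ± 4.24 (SD, n = 3) and ranks of 6, 9 and 15 among 30000 regions. The lncRNA:CR44619 first exon peak had signals of 454, 678 and 432, or 23.6, 26.6 and 23.7 times the median. Its mean multiple was 24.6 ± 1.71 (SD, n = 3), with ranks of 20, 28 and 25. The lowest multiple of the lncRNA:Vinr peak, 28.7 in replicate 3, was above the highest of its neighbour, 26.6 in replicate 2. Within a replicate the first peak was 1.50, 1.37 and 1.21 times as high as the second, a mean of 1.36 ± 0.146 (SD, n = 3).

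The spacing was similar in the replicates. The summits were 959 bp apart in replicate 1, 981 bp in replicate 2 and 924 bp in replicate 3, a mean of 955 ± 28.7 bp (SD, n = 3), and 960 bp apart in the pooled list. The summit of the lncRNA:Vinr peak lay 36 bp further right in replicate 3 than in the pooled list, and that of the second peak 21 bp further right in replicate 2. All other shifts of these 2 summits were of 2 bp or less. The called regions did not touch: the gap between them was 518 bp in the pooled list and 583, 540 and 590 bp in the replicates.

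Both peaks also departed from the usual width. Of the 4055 thresholded peaks, 69.7% had the same width of 424 bp. The lncRNA:Vinr peak was 521 bp wide, and only 13 thresholded peaks (0.321%) were wider. In the replicates it measured 448, 468 and 436 bp, above the median widths of 420, 420 and 404 bp of those lists. The lncRNA:CR44619 first exon peak, at 394 bp, was narrower than 2902 thresholded peaks (71.6%), a count that includes the 2825 peaks of 424 bp. It measured 329, 373 and 325 bp in the replicates. Peaks described below, in an intron of Smr (248 bp) and in the last exon of lncRNA:CR44619 (245 bp), were further from 424 bp than either. Within the stretch, every thresholded peak with a signal of 312 or more differed from 424 bp. The thresholded peaks with signals of 166 and 137, and all pooled regions outside the thresholded list, measured exactly 424 bp. The pair was picked for its signal, so its departure from the usual width is a description only.

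The next peaks stood on the right side. In the last exon of lncRNA:CR44619 a peak at chrX:12754397-12754641 (summit 12754524) had a signal of 312 and the rank of 786. Its multiples were 3.53 in replicate 1, 6.14 in replicate 2 and 5.31 in replicate 3, a mean of 4.99 ± 1.33 (SD, n = 3). Replicate 1 was the low one, with a rank of 1374 against 661 and 624. An intergenic peak followed at chrX:12755233-12755656 with a signal of 166 and the rank of 2348, and multiples of 3.00, 2.83 and 2.54 (mean 2.79 ± 0.230, SD, n = 3). The last one, also intergenic (chrX:12755797-12756220), had a signal of 137, the rank of 3219 and multiples of 1.89, 2.72 and 2.65 (mean 2.42 ± 0.460, SD, n = 3). The replicate values of the 2 intergenic peaks overlapped, and both were below every value of the last exon peak. From the lncRNA:Vinr summit rightwards, over 4607 bp, each peak had a lower signal in the thresholded list than the one before it. In replicate 3 the 2 intergenic peaks were in the reverse order, at 2.54 and then 2.65 times the median. The run starts at the strongest peak of the stretch, so its first step down was fixed.

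A separate peak lay in an intron of Smr, the gene of the SMRTER transcriptional corepressor, on the other side of CG4004. It covered chrX:12735640-12735887, with a signal of 479 and the rank of 333. Its multiples of 8.28, 8.07 and 6.62 (mean 7.66 ± 0.905, SD, n = 3) were above all those of the lncRNA:CR44619 last exon peak and below all those of the 2 strong peaks.

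**Figure D2:**
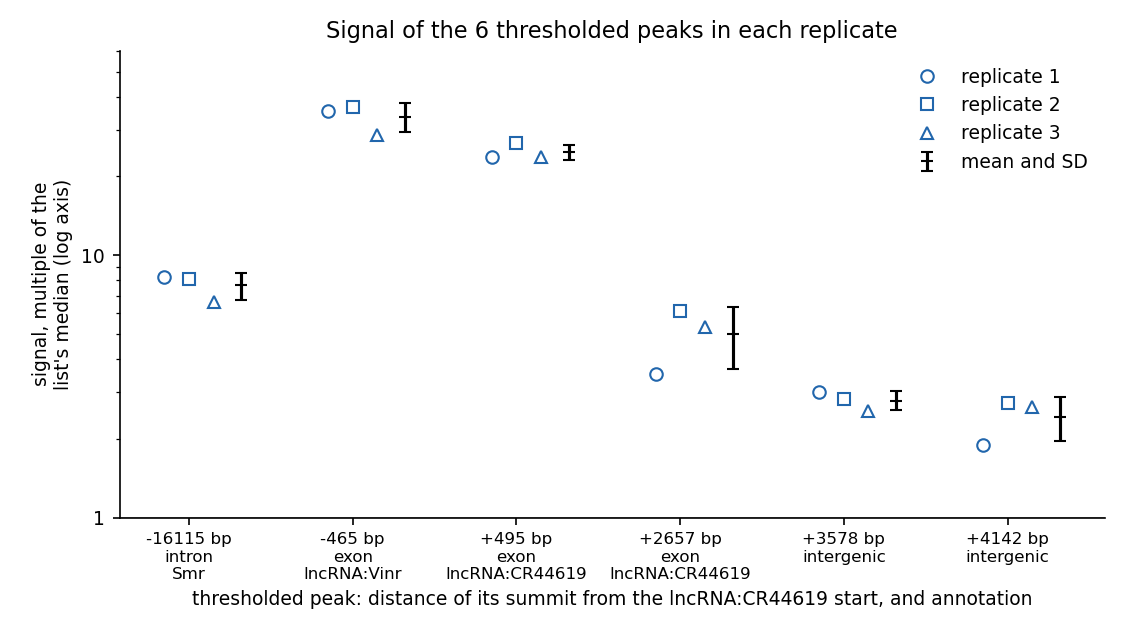
Signal of the 6 thresholded peaks in each replicate, as a multiple of the median of that replicate's list (log axis), with open symbols for replicates 1 to 3 and a bar for the mean and SD of the 3; peaks are ordered by position and named by distance from the lncRNA:CR44619 start and annotation. The values of the lncRNA:Vinr peak, 28.7 to 36.5, do not overlap those of the lncRNA:CR44619 first exon peak, 23.6 to 26.6, and both stand above the other 4 peaks.

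The 3 genes thus differed in what they held. lncRNA:Vinr held 1 thresholded summit, lncRNA:CR44619 held 2 and CG4004 none. Over the annotation 9.38% of all genes and 5.19% of lncRNA genes held a thresholded summit, and nothing is read from the members' count against these shares, since the peaks chose the genes. The start site of lncRNA:Vinr itself had almost no listed region. No thresholded or pooled summit lay within 500 bp of it, and among the replicates only replicate 3 had a region there, 314 bp downstream with a signal of 20.2, or 1.11 times that list's median.

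CG4004 carried 3 relaxed regions of the pooled list. The strongest, at 12748778 in its 3′ part, had a signal of 89.3, and it was found in all 3 replicates at 1.43, 1.64 and 1.02 times the list's median. Near the start sites at 12744212 and 12744464, regions of 63.7 (summit 12744421) and 61.1 (summit 12744642) were listed. No pooled region lay within 500 bp of the start sites at 12745316 and 12746317. The region of 61.1 was in all 3 replicates at 0.791, 1.14 and 1.09 times the median, and that of 63.7 in replicate 3 alone. These levels were close to the medians of the lists.

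Of the neighbouring genes, Paics, an enzyme gene of purine synthesis, had 1 relaxed region near its start site with a signal of 49.5, or 0.936 times the pooled median. The antisense gene asRNA:CR45623, which overlaps the 5′ end of Smr, held no region of the pooled list. pira, the last gene of the stretch, held 3 relaxed regions and no thresholded peak.

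All 12 relaxed regions of the stretch outside the thresholded list were weak, with signals of 36.1 to 116 and a median of 62.4. The thresholded list ended at a signal of 119, so the highest of the 12, in an intron of Smr at 12737999 (116), was just outside, and the second intergenic peak (137) was the member nearest to the threshold from inside. The 6 thresholded peaks were found in 3 of 3 replicates within 200 bp of the summit. Of the 12 weaker regions, 6 were found in 3 replicates, 1 in 2, 4 in 1 and 1 in none. The thresholded list was itself made by reproducibility between the replicates, so this difference is a description only.

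Summits this close were uncommon among thresholded peaks, and rarely were both strong. The median distance between neighbouring thresholded summits was 11324 bp, and 345 of 4049 distances (8.52%) were shorter than 960 bp. Pairs 300 to 2000 bp apart, called close pairs here, made up 527 of the 4049 neighbours (13%), a share from which nothing is read since spacing helped to choose the genes. Ranked by the weaker of the 2 signals, the lncRNA:Vinr and lncRNA:CR44619 pair stood first: its weaker signal of 1556 was 1.64 times the 946 of the next pair. In the strongest 4055 regions of replicates 1, 2 and 3 it was again first, at 1.65, 1.71 and 1.48 times the next. The pair was picked for strong signals at close spacing, so its first place is a description only. Only 2 close pairs had both summits among the 100 strongest peaks.

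**Figure D3:**
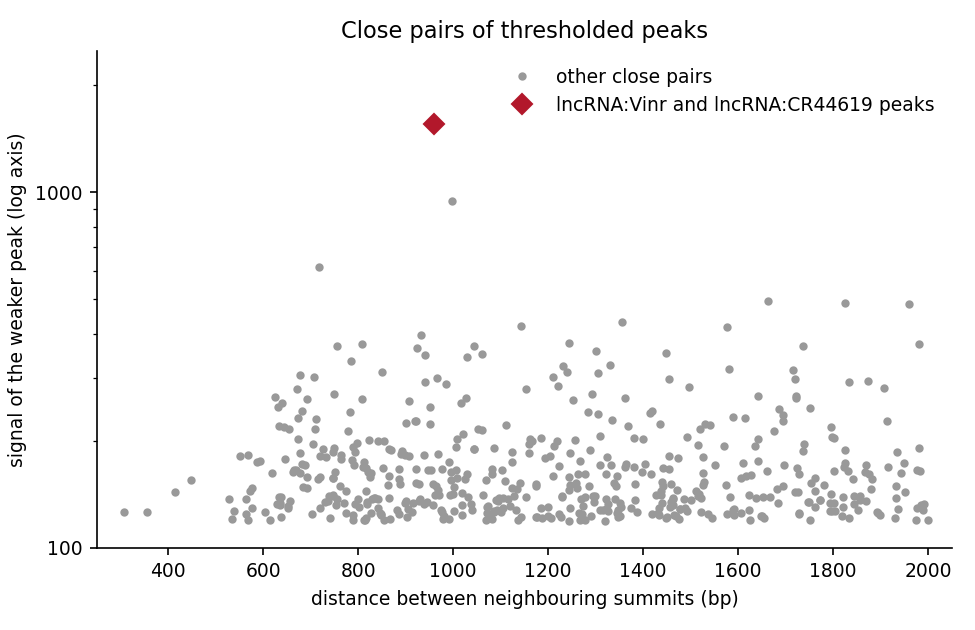
Signal of the weaker peak (log axis) against the distance between neighbouring summits (bp) for the 527 close pairs of thresholded peaks, each a point. The pair at lncRNA:Vinr and lncRNA:CR44619 (red) has a weaker signal of 1556 at 960 bp, above the 946 of the next pair.

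The other leading pairs lay in introns, upstream of a gene or in another non-coding gene. The second pair was intronic in ush, the gene of a cofactor of GATA factors (2L, summits 480088 and 481085, 997 bp apart), and combined a peak of 946 with the strongest peak of the whole list, 3827. The third was in an intron of NFAT on X, with signals of 1294 and 615 at 718 bp. The fourth stood upstream of the transcription factor gene Atf3 on X, with 1461 and 493 at 1664 bp. Next came lncRNA:CR44810 on 2R, with 489 and 684 at 1826 bp, and an intron of CHES-1-like, a forkhead gene on X, with 485 and 554 at 1961 bp. In these 5 pairs the weaker signal was at most 946, less than either peak of the lncRNA:Vinr pair.

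The peaks also formed a dense group. A window of 5 kb from the lncRNA:Vinr summit held 5 thresholded summits, where the median over the 4055 windows begun at each summit was 1 and the highest was 6. As many as 5 were held by 10 windows (0.247%). The summed signal of the window, 4278, ranked as 3 of all windows. The window holds both peaks that chose the genes, so nothing is read from its count or its rank.

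The 2 strong peaks both had less GC than the median thresholded peak, and how far they differed depended on the window. Within 100 bp of the summit, GC content was 25.9% at the lncRNA:Vinr peak and 34.3% at the lncRNA:CR44619 first exon peak. The median over thresholded peaks was 38.3%, with quartiles of 33.8% and 43.3%, and over 25047 weaker pooled regions 45.8%. In that window 31 of 4055 thresholded summits (0.764%) had less GC than the lncRNA:Vinr peak. For the lncRNA:CR44619 first exon peak, which was within the quartiles, the count was 1085 (26.8%). Within 150 bp the peaks were at 32.2% and 33.9%, against a median of 39.2%. There 293 summits (7.23%) had less GC than the lncRNA:Vinr peak and 581 (14.3%) less than its neighbour. At the replicates' own summits GC content within 100 bp was 27.9 ± 3.89% at the lncRNA:Vinr peak and 33.5 ± 1.04% at its neighbour (SD, n = 3). Of the bases around that summit 49.3% are masked as repeat or low-complexity sequence in the RefSeq genome, against 24.4% at the second peak and a median of 14.9% over thresholded peaks. Whether masked bases affect the height of a peak was not tested.

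The motifs printed in capitals differed between the 2 strong peaks, with none in common. Of 14 motifs searched on both strands, with positions given for the first base of a match, the lncRNA:Vinr peak had 3: the STAT pattern TTCNNNGAA 13 bp after the summit, GCCAT 83 bp after it, and TATAAA 88 bp before it. These are held by 5.65%, 28.3% and 26.3% of thresholded peaks, and by 4.99%, 35.2% and 16.2% of weaker regions. The lncRNA:CR44619 first exon peak had CGATA 11 bp before and 18 bp after the summit, a motif of 31.5% of thresholded peaks and 23.9% of weaker regions. It also had CAGCTG 86 bp after the summit (11.0% of thresholded peaks and 11.7% of weaker regions). The core CGATA is part of the longer motif TATCGATA, which neither peak held. It occurred at 4.86% of thresholded peaks and 1.57% of weaker regions.

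At the weaker peaks, CACGTG stood 60 bp before the summit in the last exon of lncRNA:CR44619. It occurred at 2.47% of thresholded peaks and 2.79% of weaker regions. The last intergenic peak had a loose match to the binding pattern of the NF-kappaB family (3 G, any 5 bases, 2 C), found as GGGTTCAACC 56 bp before its summit. The pattern occurs at 9.35% of thresholded peaks and 16.1% of weaker regions. The Smr intron peak had none of the 14 motifs. A match describes the letters only. The longest word shared by the windows of the 2 strong peaks was 10 bases, where the median over the 527 close pairs was 8, the highest 14, and 31 pairs shared a longer one.

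Since lncRNA:Vinr is known from antiviral and antimicrobial defence, peaks at the start sites of immune genes are given beside it. Fly immunity works through the Toll and Imd pathways, which end in NF-kappaB factors and antimicrobial peptide genes, through JAK/STAT signalling, and through RNA interference against viruses. Over 5 lists, 17 of 69 genes (24.6%) had a thresholded summit at most 500 bp from a start site, here called a start-site peak, and 18.4% of all 13968 protein-coding genes did. In the strongest 4055 regions of each replicate the share was 22.7 ± 3.65% of the listed genes and 18.3 ± 0.538% of all protein-coding genes (SD, n = 3).

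Genes of the antimicrobial peptides themselves had no such peak: 0 of 14 in the thresholded list and in each replicate. A count of 0 in 14 genes allows a share of up to 21.4%, which is above that of all protein-coding genes, so a lower share is not shown. This approximate 95% limit is 3 counts divided by the number of genes, and it takes the genes as independent. AttA and AttB, for attacins, had no pooled region near a start site either. These genes include near-identical copies, and the sources used here do not say how reads that map to several places were treated.

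Some signalling genes carried peaks. Of the Imd pathway 7 of 17 had one (41.2%, against 18.4% of all protein-coding genes), with replicate shares of 35.3%, 35.3% and 47.1%. With summits at most 200 bp from a start site the count was 4 of 17 (23.5%), against 13.9% of all protein-coding genes. The adaptor gene imd had the strongest, a signal of 421, and multiples of 7.62, 6.01 and 6.81 in the replicates. The ubiquitin-conjugating enzyme genes eff (247) and ben (229) and the kinase gene Tak1 (192) followed. The caspase gene Dredd and the adaptor gene Fadd had relaxed regions of 96.2 and 67.0 only.

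Of the Toll pathway 4 of 16 genes had a peak (25%, against 18.4% of all protein-coding genes), with replicate shares of 18.8%, 31.3% and 31.3%. That of cact, the inhibitor that holds the NF-kappaB factors in the cytoplasm, was the strongest at 551, with multiples of 8.34, 9.07 and 8.38. The adaptor genes Myd88 (273) and tub (147) and the kinase gene pll (179) also had one. The NF-kappaB factor genes Dif and dl had relaxed regions of 66.6 and 85.5.

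JAK/STAT genes with a peak were 3 of 10 (30%), against 18.4% of all protein-coding genes. The replicate shares were 10%, 20% and 30%. Those with a peak were the transcription factor gene Stat92E (244), the inhibitor gene Socs36E (185) and the phosphatase gene Ptp61F (123). The receptor gene dome had a relaxed region of 86.8, and et, a related receptor gene, none in the pooled list.

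Among antiviral genes 3 of 12 had a peak (25%, against 18.4% of all protein-coding genes), with replicate shares of 25%, 25% and 16.7%. These were r2d2, the partner of Dicer-2, with a signal of 531 and multiples of 7.17, 9.31 and 8.60, the RNA-processing gene Ars2 (181), and Sting (141), a sensor of cyclic dinucleotides. AGO2, the slicer of antiviral RNA interference, had a relaxed region of 113, under the lowest thresholded signal. The region at cactin, the gene of the protein that the Vinr RNA is known to protect, was of 66.9 (1.23, 1.62 and 0.679 times the median in the replicates). The strongest of these start-site peaks, 551 at cact, was lower than either strong peak of the non-coding genes, and so was the peak of 222 at the start of Su(var)3-7 itself (mean multiple 3.62 ± 0.923, SD, n = 3). The strong peaks of the non-coding genes were picked for their signal, so nothing is read from this order.

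**Figure D4:**
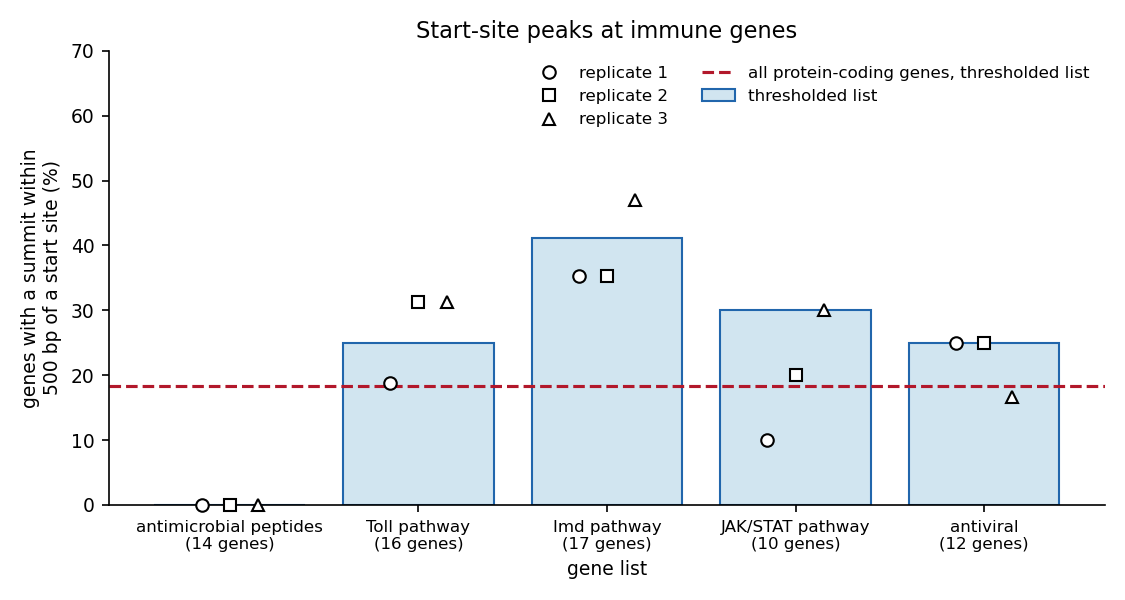
Share of genes (%) with a start-site peak (summit at most 500 bp away) for 5 lists of immune genes, as bars for the thresholded list and symbols for the strongest regions of each replicate, with a dashed line at the 18.4% of all protein-coding genes. The antimicrobial peptide list is at 0, and the Imd list is highest at 41.2%.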

How the data were processed

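Peak lists of 3 biological replicates of Su(var)3-7-GFP embryos were used. Per the deposited inventory texts, the authors listed relaxed regions for each replicate and for the pooled replicates against 1 control file each, and derived the thresholded list by the irreproducible discovery rate. For the aligner, peak caller, threshold and read filters: not given in the sources used here. The signal value of each region is the authors' deposited one. Without read depth, no counting intervals were computed for the signals.

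From these lists, summits were placed on Ensembl release 115 of BDGP6.54. Every dm6 summit lay within the RefSeq Release 6 chromosomes. Coordinates are 1-based. Replicate regions were matched to a thresholded summit within 200 bp, and the signal was divided by the list's median. A start-site peak is a summit at most 500 bp from a gene's annotated start site, and 1 peak can count for adjacent genes. In each replicate the strongest 4055 regions were used for pairs and lists. Motifs were searched within 100 bp of summits. Weaker regions are pooled ones that overlap no thresholded peak. Of the thresholded intervals 17 are repeats that differ in summit, and none of them is in the stretch described.

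No test was made, since the signal chose the genes and there is 1 group. The members and lists were chosen with earlier results of these data known. Genes were named by a rule: the 3 genes, those that overlap the stretch, the 5 next close pairs, Su(var)3-7, and of each immune list up to 4 with the highest start-site signal and the alphabetically first 2 that lack such a peak. The genes that appear in the closing section alone were picked with their values in view. Pair finding and start-site counting were tested on simulated data. Alternatives were other distances, matches, windows and list cuts, the dm3 lists and leaving out each replicate. Python 3.11.15, NumPy 2.4.6, pandas 2.3.3, SciPy 1.17.1 and matplotlib 3.10.9 were used.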

Additional observations from a re-analysis of the deposited data

How the results depend on the processing

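Of 76 alternative values for 17 results, 65 stayed within the spread between replicates (for counts within 1.5 times, for GC content within its 95% Wilson interval) and 11 moved. Leaving out 1 of 3 replicates cannot shift a mean by as much as the SD, so those alternatives had to stay. The other match rules returned the same mean multiples for the 2 strong peaks. The count of 65 is therefore no measure of robustness. With 5 kb beyond the genes the pooled list had 10 regions in place of 18. As multiples of the median of each replicate's strongest 4055 regions, the strong peaks were at 11.3 (lncRNA:Vinr) and 8.28 (lncRNA:CR44619), since that median is higher. Close pairs numbered 190 at 300 to 1000 bp and 1108 at 300 to 5000 bp, and the pair described was first in each, and also at 0 to 2000 bp. Leaving out 1 replicate gave 32.1 to 36.0 for the lncRNA:Vinr peak, 23.7 to 25.2 for its neighbour and 942 to 970 bp for the spacing. In the dm3 lists the strongest close pair on X was 945 bp apart on average over replicates. The 2027 strongest thresholded peaks left 2 Toll genes and 11 immune genes in all, while the share of all protein-coding genes was 10.1% in place of 18.4%. At 200 bp from a start site 4 Imd genes were counted, with 13.9% of all protein-coding genes, and in replicate 1 alone 1 JAK/STAT gene was counted. In a window of 50 bp each strong peak held 1 motif. No paired analysis was possible because there is 1 group. The unknown depth and the unstated scale of the signal limit every comparison of levels to ranks and multiples.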

Other observations

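Beyond the last intergenic peak came a long stretch without thresholded peaks. From the summit at 12756009 to the next at 13094320, in an untranslated region of CG2200 (signal 130), were 338 kb, the 15th longest of 4049 distances between neighbouring thresholded summits and the 3rd longest of 747 on X. The median distance was 11.3 kb. The stretch holds 28 protein-coding genes and 2 lncRNA genes, among them the neuronal RNA-binding protein gene fne, the phosphodiesterase gene Pde9 and the memory gene rsh (radish), each over 20 kb long.

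The pooled list had 33 regions there more than 500 bp from both ends, or 9.75 per 100 kb. None of them overlapped a thresholded peak, and such weaker regions numbered 18.3 per 100 kb over X. The stretch was singled out for its lack of thresholded peaks, and the relaxed list comes from the same signal, so the lower density is a description only. The strongest pooled region of the stretch had a signal of 117, just under the threshold. On the other side the next thresholded peak was near: an intronic peak of Smr at 12719344 (signal 321), 14.9 kb before the stretch described.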
